A study of Mus musculus with 6 samples.

Results

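The DNA replication machinery was examined as 50 genes, from the proteins that mark replication origins to those that join the finished strands, found by gene name among the 39527 genes of a deposited comparison of sorted mouse lung ILC2s (group 2 innate lymphoid cells). The KO group holds 3 samples from R5/+LKB1f/f mice, and the WT group 3 samples from R5/+ mice. Cells from 3 to 4 mice were pooled for each sample after 4 days of IL-33, the epithelial alarmin that activates ILC2s, so that every animal carries R5 and received IL-33. LKB1, encoded by Stk11, is the kinase that activates AMPK. The labels spell out neither the R5 allele nor what drives recombination of the floxed alleles, and give no ages. By its title, the study asks how LKB1 bears on exhaustion of ILC2s and on metastasis of lung cancer.

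Replication starts when the origin recognition complex binds DNA and, with Cdc6 and Cdt1, loads the ring of Mcm2 to Mcm7 helicase subunits. Cdc45 and the GINS complex then join the ring and turn it into the working helicase, after which polymerase alpha-primase starts each strand and polymerases epsilon and delta extend it on the Pcna clamp. Many of these genes are transcribed under E2F factors as cells enter S phase, so that their mRNA is known to be abundant in dividing cells. ILC2s of the lung are known to divide after IL-33.

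The values are the authors' own comparison, which gives each gene 1 log2 fold change with a standard error (SE) and a level, the mean normalized count over the libraries of their fit. Values of single samples were not used here, since the names of those columns match no label, so that neither the level in each genotype nor the overlap of the groups can be given. The direction of the fold change is not stated. Signs are therefore given as deposited, and "negative" or "positive" refers to that sign. Stk11, the floxed gene, was negative at -1.34 ± 0.30 (SE) per the authors' deposited table (adjusted p = 0.000102557). A gene is called when its adjusted p, taken over all 14961 tested genes, is below 0.05.

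Of the 50 replication genes, all had an adjusted p, 45 were called negative and 0 were called positive. Over all tested genes, 13.5% were called negative and 11% positive. The median log2 fold change of the replication genes was -1.05, a size near 2-fold, beside -0.00557 over all tested genes. In 48 genes the fold change was below 0, as in 50.4% of tested genes, and 29 lay below -1, which 7.04% of tested genes did. The whole 95% interval was below 0 in 45 replication genes and in 18.4% of tested genes. It was below -0.5 in 30 replication genes and in 4.28% of tested genes. With other call rules, 41 replication genes were negative at an adjusted p below 0.01 (9% of tested genes negative, 6.79% positive). The count was 43 with p adjusted over every gene with a p-value (4.03% negative, 3.2% positive) and 45 of 49 over genes with a mean of at least 100 normalized counts (20% negative, 15.5% positive). It was 11 when tested against an absolute log2 fold change of 0.5 (1.78% negative, 1.27% positive). It was 43 after trends on exon length and GC content were removed (11.4% negative, 11.2% positive) and 43 after centring on the most abundant 25% of genes (12% negative, 12.4% positive), with 0 replication genes positive under each of these rules. The called genes ran from -1.67 for Gins2 to -0.43 for Pold1 per the authors' deposited table. The 5 genes that were not called were Orc2, Orc3, Orc4, Orc5 and Fen1. In bulk samples, a difference in the share of cycling cells and a difference in RNA per cell cannot be told apart. These counts describe genes measured in the same libraries, which are not independent of each other, and the genes were chosen with earlier results of these data known.

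**Figure D1:**
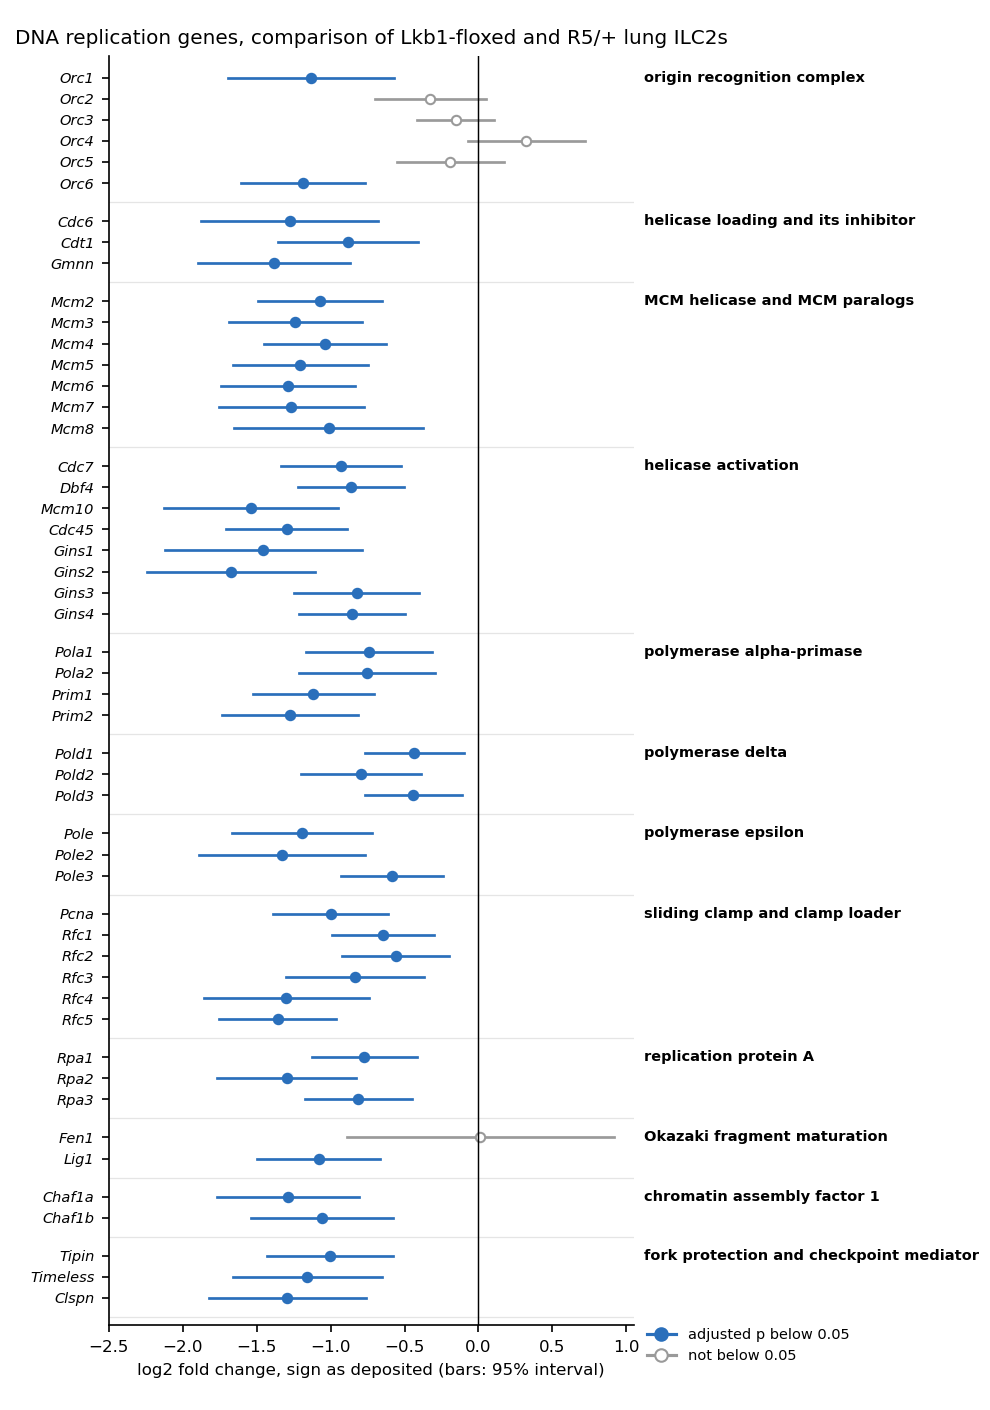
Log2 fold change of each of the 50 replication genes, with the sign as deposited, as a point with its 95% interval, grouped by role; filled blue points have an adjusted p below 0.05 and open grey points do not. The 45 called genes all lie left of 0, and 4 of the 5 genes not called belong to the origin recognition complex.

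Promoters are shown first. Many of these genes are known to be transcribed under E2F factors, so that a high share of E2F words goes with the choice of genes. It does not bear on the comparison of the genotypes. RefSeq windows of 300 bases (250 before and 50 after the transcription start, build GRCm38.p6) were matched to 41 of the 50 genes. They were searched on both strands for the E2F words TTTCCCGC, TTTGGCGC, TTTCGCGC and TTTGCCGC. At least 1 such word was found in 17 of the 41 replication genes (41.5%), in 450 of 10361 other tested genes (4.34%) and in 704 of all 27025 genes with a window (2.605%). In the 250 bases before the start alone, a word was found in 9 of the 41 replication genes (21.95%) and in 3.70% of other tested genes. The CCAAT box was found in 58.5% of the replication genes and in 42.4% of other tested genes. The cell cycle homology region word TTTGAA, known from promoters of mitotic genes, was found in 17.1% and 14.7%. Capitals mark E2F words, on either strand, in the stretches below. All stretches run 5′ to 3′ on the strand of the gene and lie upstream of its RefSeq start. They were chosen to show helicase, loading, polymerase and origin genes that hold a word, and, from Rfc5 and Mcm10, genes with large fold changes that hold none. The Orc3 stretch also lies in an exon of its neighbour Rars2. By GENCODE M21 all 30 bases of the Gins3 stretch and 21 of the 30 of Orc1 lie in the genes' own exons. The Cdc6 stretch lies downstream of the GENCODE start of Cdc6, outside annotated exons.
Mcm6, 3 words of which 2 overlap (chr1:128359731-128359830, minus strand): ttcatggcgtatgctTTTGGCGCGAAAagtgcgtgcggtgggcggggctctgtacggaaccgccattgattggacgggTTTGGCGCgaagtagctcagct
Mcm5, 2 overlapping words (chr8:75109349-75109448, plus strand): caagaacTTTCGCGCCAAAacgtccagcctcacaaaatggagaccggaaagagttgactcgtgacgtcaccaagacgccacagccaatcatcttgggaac
Cdc6, 1 word (chr11:98908001-98908100, plus strand): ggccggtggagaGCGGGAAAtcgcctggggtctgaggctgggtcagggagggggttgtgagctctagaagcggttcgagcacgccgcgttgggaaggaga
Pola1, 1 word (chrX:93632206-93632305, minus strand): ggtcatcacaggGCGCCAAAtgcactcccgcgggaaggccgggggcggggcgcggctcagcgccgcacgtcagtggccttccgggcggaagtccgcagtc
Gins3, 1 word (chr8:95633507-95633536, plus strand): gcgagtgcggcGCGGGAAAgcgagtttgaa
Orc1, 1 word (chr4:108579414-108579443, plus strand): gtttcggttagtgGCGCGAAAagttttctc
Orc3, 1 word (chr4:34614965-34614994, minus strand): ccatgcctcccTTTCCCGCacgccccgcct
Rfc5, 0 words (chr5:117389054-117389123, minus strand): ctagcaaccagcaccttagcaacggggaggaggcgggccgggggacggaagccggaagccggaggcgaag
Mcm10, 0 words (chr2:5012812-5012911, minus strand): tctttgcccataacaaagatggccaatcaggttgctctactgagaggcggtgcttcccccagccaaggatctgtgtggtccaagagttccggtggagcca

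Median fold changes of the replication genes with and without an E2F word lay close together, and the ranges overlapped, with no test of the difference. The 17 genes with a word had a median log2 fold change of -1.08, from -1.33 to -0.15, and the 24 genes without one had -0.97, from -1.54 to 0.33. Orc3 held a word and was not called, whereas Rfc5 and Mcm10 held none and were called. Among other tested genes the medians were -0.12 for the 450 with a word and -0.01 for 9902 without, leaving out symbols that stand on more than 1 row. Of the Mcm2 to Mcm7 genes with a window, Mcm3, Mcm5, Mcm6 and Mcm7 each held at least 2 words and Mcm2 held none. A match says that the letters are present, not that a factor binds there.

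**Figure D2:**
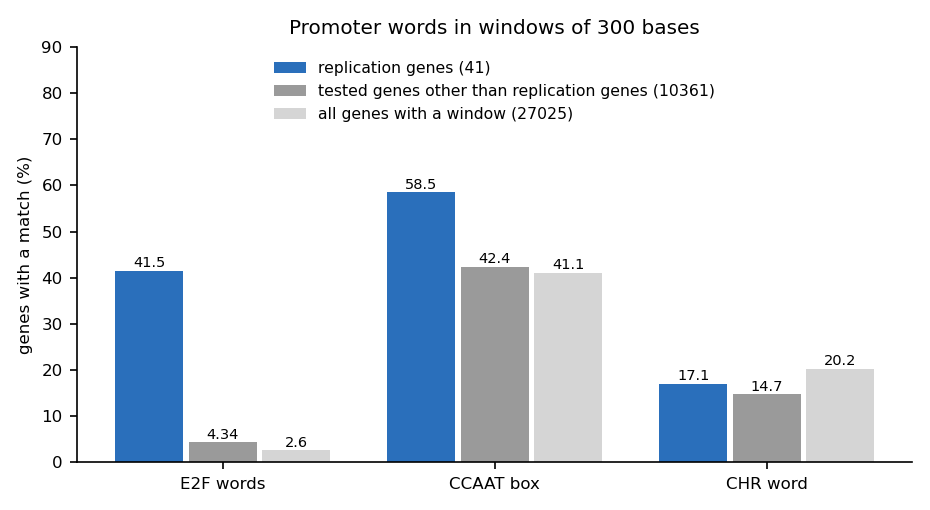
Percent of genes whose promoter window of 300 bases holds at least 1 match, for E2F words, the CCAAT box and the cell cycle homology region (CHR) word, in replication genes, other tested genes and all genes with a window. The E2F words show the widest gap, at 41.5% of replication genes and 4.34% of other tested genes.

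Of the origin recognition complex, which marks where replication can start, 2 of 6 subunits were called negative. Orc6, its smallest subunit, stood at -1.18 ± 0.21 (SE) with an adjusted p of 1.16e-06 and a mean of 745 normalized counts per the authors' deposited table. Orc1, the subunit whose level is known to follow the cell cycle, stood at -1.13 ± 0.29 (adjusted p = 0.000804455) per the authors' deposited table. The other 4 subunits were not called. Orc2, Orc3 and Orc5 had log2 fold changes of -0.32, -0.15 and -0.19, and Orc4 had 0.33, per the authors' deposited table. Orc5 had the weakest evidence of the 6, with an adjusted p of 0.506445 per the authors' deposited table. The 95% intervals of these 4 subunits reached from -0.70 for Orc2 at the lower end to 0.72 for Orc4 at the upper end, so that changes of moderate size were not detectable at this precision. The intervals of Orc1 (-1.69 to -0.57) and Orc6 (-1.60 to -0.76) lay below those of Orc3, Orc4 and Orc5, while that of Orc1 overlapped the interval of Orc2 (-0.70 to 0.05). Differences between subunits were not tested, since their errors come from the same libraries.

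All 3 helicase loading genes were called negative. Gmnn encodes geminin, the inhibitor that binds Cdt1 and blocks a further round of loading. It stood at -1.38 ± 0.26 (SE) per the authors' deposited table, a 2.61-fold size, with an adjusted p of 3.72e-06 and a mean of 697 normalized counts. The loading factors Cdc6 and Cdt1 had -1.28 ± 0.31 and -0.88 ± 0.24 per the authors' deposited table, and the adjusted p of Cdt1 was 0.00225731. The loaders and their inhibitor thus carried the same sign.

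The helicase ring itself moved within a narrow range. Mcm2 to Mcm7 lay between -1.29 and -1.04 per the authors' deposited table, a spread of about the size of 1 standard error (0.21 to 0.25). Mcm6 had the smallest p, at -1.29 ± 0.23 (adjusted p = 9.18e-07), and with 7441 normalized counts the highest mean of all 50 genes per the authors' deposited table. Mcm8, which is not part of the ring and works with Mcm9 in recombination repair, had -1.01 ± 0.33 (adjusted p = 0.0117794) at a mean of 221 normalized counts per the authors' deposited table. Its partner Mcm9 had -0.49 ± 0.36 and was not called per the authors' deposited table. Per kb of exon, the levels of the 6 ring genes ran from 666 normalized counts for Mcm2 to 1595 for Mcm6, a ratio of 2.40, and Mcm8 had 59.3. The lengths are those of GENCODE M21, which may not be the annotation behind the counts.

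Helicase activation genes were called negative in all 8 members, with a median log2 fold change of -1.11. Gins2, a subunit of the GINS complex, had the largest fold change of the 50 genes, at -1.67 ± 0.29 (SE) per the authors' deposited table, a 3.19-fold size. It was also the only one with the whole 95% interval (-2.24 to -1.10) below -1. Cdc45, which ties GINS to the Mcm ring, had the smallest p of the group, at -1.30 ± 0.21 with an adjusted p of 3.41e-08 and 831 normalized counts per the authors' deposited table. Mcm10, which helps the helicase to start, stood at -1.54 ± 0.30 per the authors' deposited table. The 4 GINS subunits fell into 2 levels of fold change, Gins1 and Gins2 at -1.45 and -1.67 and Gins3 and Gins4 at -0.82 and -0.86 per the authors' deposited table, and the 95% intervals of both pairs overlap. Gins3 had the largest p of the group (adjusted p = 0.00130247) per the authors' deposited table. Per kb of exon, Gins4 had 608 normalized counts and Gins1, Gins2 and Gins3 between 82.5 and 97.1. Per kb of coding length the levels were 1227 for Gins4, 641 for Gins2, 345 for Gins3 and 250.4 for Gins1, so that the place of Gins2 depends on the length used. The kinase Cdc7 and its activator Dbf4, which phosphorylate the loaded Mcm ring, had -0.93 ± 0.21 and -0.86 ± 0.18 per the authors' deposited table.

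The polymerases of the fork differed in size of change. Polymerase alpha-primase, which lays the RNA and DNA primer, was called negative in all 4 subunits. Its primase subunits Prim1 and Prim2 had -1.12 and -1.27 (SE 0.21 and 0.23), beside -0.74 and -0.75 (SE 0.22 and 0.23) for the polymerase subunits Pola1 and Pola2 per the authors' deposited table. The adjusted p was 1.86e-06 for Prim2 and 0.00816549 for Pola2 per the authors' deposited table. Polymerase epsilon, the leading strand enzyme, had its catalytic subunit Pole at -1.19 ± 0.24 (adjusted p = 1.81e-05, 885 normalized counts) and Pole2 at -1.33 ± 0.29 per the authors' deposited table. Its histone-fold subunit Pole3, which also serves in a chromatin remodelling complex, had -0.58 ± 0.18 (adjusted p = 0.00646406) per the authors' deposited table, and it lost its call when trends of fold change on exon length and GC content were removed (adjusted p = 0.1314).

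In polymerase delta, the lagging strand enzyme, Pold1 and Pold3 gave the smallest sizes of the called genes. The catalytic subunit Pold1 had -0.43 ± 0.17 with an adjusted p of 0.0454755, and Pold3 had -0.44 ± 0.17 with an adjusted p of 0.037559, per the authors' deposited table. Pold2 had -0.80 ± 0.21 (adjusted p = 0.00122481) per the authors' deposited table. Pold1 and Pold3 lost their call at an adjusted p below 0.01. They also lost it when p-values of the authors' deposited table were adjusted over every gene with one (Benjamini-Hochberg adjusted p = 0.1161 and 0.09642), and when fold changes of the authors' deposited table were centred on the most abundant 25% of genes (0.07242 and 0.06099). Pold3 lost it too when the length and GC trends were taken from the authors' deposited table (adjusted p = 0.08288). The fourth subunit, Pold4, had 0.12 ± 0.14 and was not called per the authors' deposited table, and neither was Pole4, the partner of Pole3, at -0.14 ± 0.13.

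**Figure D3:**
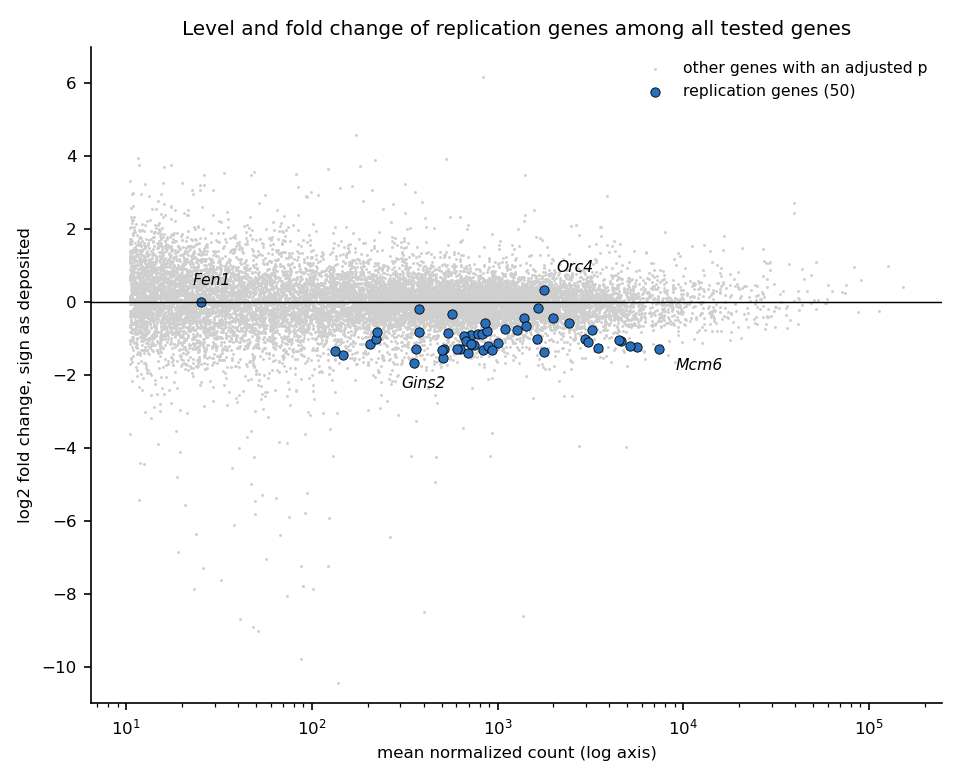
Log2 fold change (sign as deposited) against the mean normalized count on a log axis, for the 50 replication genes in blue and all other genes with an adjusted p in grey. Most replication genes lie near -1 at levels from about 133 to 7441 normalized counts, and Fen1 stands apart at 25.2 counts.

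The sliding clamp Pcna, which holds the polymerases on DNA, stood at -1.0 ± 0.20 (SE) with 2979 normalized counts per the authors' deposited table. All 5 subunits of its loader, replication factor C, were called negative, over a wide range. Rfc5 had the smallest p of all 50 genes, with a fold change of -1.36 ± 0.20 and an adjusted p of 1.75e-09 per the authors' deposited table. Rfc4 and Rfc3 had -1.30 and -0.83, and the large subunit Rfc1 and Rfc2 had -0.64 and -0.56, per the authors' deposited table. The interval of Rfc5 (-1.75 to -0.96) lay below that of Rfc2 (-0.92 to -0.20), with an adjusted p of 0.0139477 for Rfc2 per the authors' deposited table. Replication protein A, which coats the opened strands, was called negative in Rpa1, Rpa2 and Rpa3. Rpa2, the subunit that checkpoint kinases phosphorylate, had -1.30 ± 0.24 (adjusted p = 1.97e-06), and Rpa1 and Rpa3 had -0.77 ± 0.18 and -0.81 ± 0.18 (adjusted p = 0.000279135 for Rpa1) per the authors' deposited table.

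Of the pair that finishes Okazaki fragments, the ligase gene Lig1 had -1.08 ± 0.21 (SE) with an adjusted p of 9e-06 and 3056 normalized counts per the authors' deposited table. The flap nuclease gene Fen1 had 0.01 ± 0.46 with an adjusted p of 0.989481 per the authors' deposited table. Its mean of 25.2 normalized counts was the lowest of the 50 genes, and its 95% interval ran from -0.89 to 0.92. In GENCODE M21, 84.2% of the exon bases of Fen1 are also exon bases of the opposite-strand genes Tmem258 and Gm10143, and reads that fall on 2 genes may be dropped or shared by a counting tool. The sources used here do not give how the authors treated such reads, so that the low level and the fold change of Fen1 are uncertain. Tmem258 had -0.22 ± 0.12 per the authors' deposited table.

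Overlap with another gene's exons also reached 67.3% of the exon bases in Gins2 (with Gse1), 52.5% in Chaf1a (with Ubxn6) and 29.8% in Orc2 (with Nif3l1). The opposite-strand genes Gse1, Ubxn6 and Nif3l1 had 0.33, 0.03 and -0.05 and were not called per the authors' deposited table. In all, 9 of the 50 genes shared over 10% of their exon bases and 32 shared none.

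Both genes of the chromatin assembly factor that places histones behind the fork were called negative. Chaf1a had -1.29 ± 0.24 (SE) with an adjusted p of 4.28e-06, and Chaf1b had -1.06 ± 0.25, per the authors' deposited table. The fork protection genes Timeless and Tipin, which bind each other and travel with the helicase, had -1.16 ± 0.26 (adjusted p = 0.000118821) and -1.002 ± 0.22 per the authors' deposited table. Clspn, which encodes the checkpoint mediator claspin, had -1.29 ± 0.27 with an adjusted p of 4.03e-05 and 365 normalized counts per the authors' deposited table. Over all roles, 38 of the 50 genes lay between -1.5 and -0.7.

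Several replication genes share a start region with a neighbour that is transcribed away from them. Starts within 1000 bases of each other, head to head and without overlap, were found for 9 pairs in which both genes had an adjusted p. Of the replication genes in these pairs 8 were called negative, and of the neighbours 1 was, beside 13.5% of all tested genes. The median log2 fold change was -1.01 for the replication genes and -0.34 for the neighbours, beside -0.00557 over all tested genes. The replication gene had the lower value in 8 of the 9 pairs. Mcm4 and the DNA repair kinase gene Prkdc start 466 bases apart and had -1.04 ± 0.21 and 0.14 ± 0.16 (SE) per the authors' deposited table. Rpa1 and Smyd4 (109 bases apart) had -0.77 ± 0.18 and 0.25 ± 0.22, and Dbf4 and Slc25a40 (134 bases apart) had -0.86 ± 0.18 and -0.05 ± 0.17, per the authors' deposited table. Of the other neighbours, Trmt6, Abhd12, Pxmp2 and Umad1 had -0.34, -0.31, -0.89 and -0.41 per the authors' deposited table. None of these was called. The neighbour that was called was Prpf38a, a splicing factor gene beside Orc1, at -0.64 ± 0.17 per the authors' deposited table. The exception in order was Orc3, at -0.15 ± 0.13 beside -0.61 ± 0.26 for Rars2 per the authors' deposited table, whose starts lie 13 bases apart. These pairs were looked up after the fold changes were known, and differences within pairs were not tested.

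**Figure D4:**
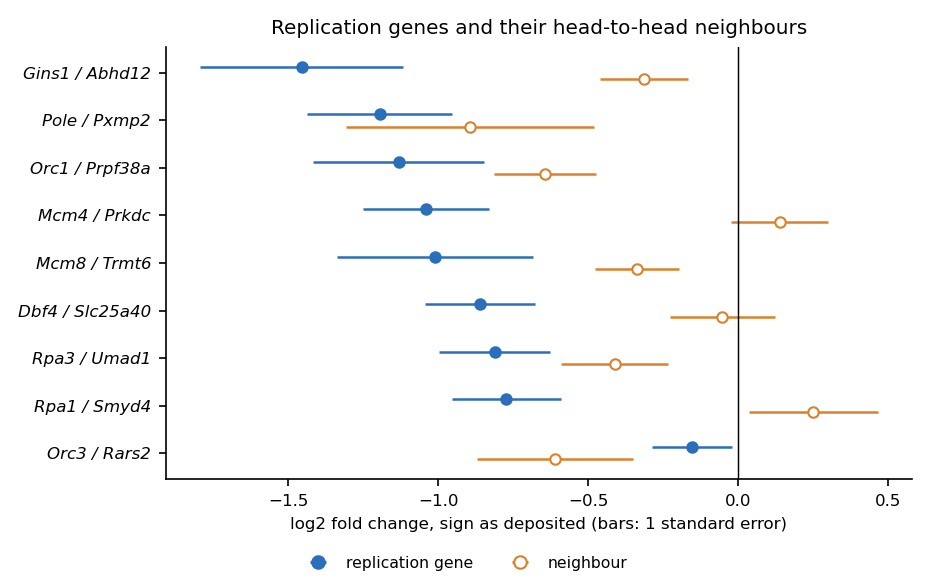
Log2 fold change (sign as deposited) of 9 replication genes (filled blue) and of the head-to-head neighbour of each (open orange), with bars of 1 standard error. The replication gene lies left of its neighbour in 8 pairs, and Orc3 with Rars2 is the exception.

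Replication genes outside the 50 were read from a list of 32. Negative calls were made for 21 of them and positive calls for 0, beside 13.5% and 11% of all tested genes. Their median log2 fold change was -0.78. Pclaf, a Pcna-associated factor listed under an older symbol, had -1.83 ± 0.19 (SE) and an adjusted p of 6.54e-20 per the authors' deposited table. The histone chaperone gene Asf1b had -1.42 ± 0.20 (adjusted p = 3.05e-10), and the nuclease-helicase gene Dna2 -1.49 ± 0.26 (adjusted p = 3.25e-07), per the authors' deposited table. The 11 genes not called included the topoisomerase gene Top1 at -0.13 ± 0.14 per the authors' deposited table. Of the histone chaperone FACT, Ssrp1 was called at -0.62 ± 0.15 and Supt16 was not at -0.35 ± 0.19 per the authors' deposited table, and the difference between them was not tested.

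DNA polymerase genes of repair, lesion bypass and mitochondria gave another picture than those of the fork. Of 13 such genes, the call was negative for 1 and positive for 2, and the median log2 fold change was 0.24. The mitochondrial polymerase gene Polg had 0.69 ± 0.15 (adjusted p = 9.51e-05) and the bypass polymerase gene Rev1 0.56 ± 0.19 (adjusted p = 0.0178318) per the authors' deposited table. The called negative gene was Polq, the polymerase of microhomology end joining, at -1.14 ± 0.33 (adjusted p = 0.00438267) per the authors' deposited table. The shares, 7.69% negative and 15.4% positive, stood near the 13.5% and 11% of all tested genes.

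All 10 markers of proliferation were called negative, beside 13.5% of all tested genes. Their median was -1.41, from -1.83 for Ccnb1 to -0.99 for Tk1 per the authors' deposited table. Birc5, Top2a and Mki67 had the smallest p, and Mki67, the classical marker of cycling cells, stood at -1.24 ± 0.19 (SE) per the authors' deposited table.

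**Figure D5:**
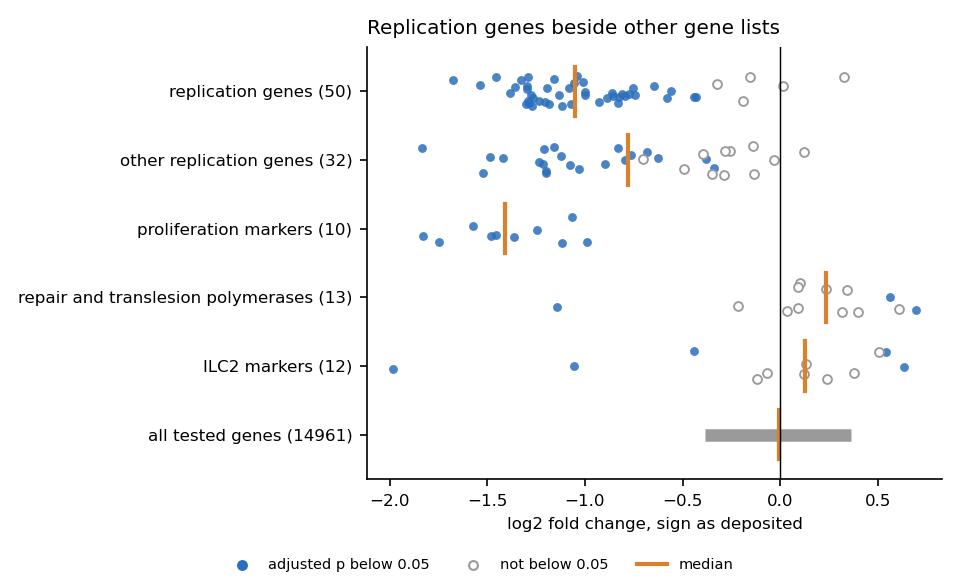
Log2 fold change (sign as deposited) of the genes of each list, as blue points where the adjusted p was below 0.05 and open grey points where it was not; orange lines mark medians, and the grey bar for all tested genes spans the quartiles. The replication genes have a median of -1.05, between the proliferation markers at -1.41 and the other replication genes at -0.78, while the repair and bypass polymerases lie around 0.24.

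The labelled cell type was checked on 12 ILC2 markers, all of them detected, at means from 291 normalized counts for Thy1 to 44552 for Gata3 per the authors' deposited table. Of these 2 were called positive and 3 negative, with Gata3, the lineage factor, at 0.63 ± 0.16 (SE) and the costimulatory receptor gene Icos at 0.54 ± 0.15 per the authors' deposited table. With length and GC trends removed from the authors' deposited table, 4 were called positive, the added ones being Il7r at 0.57 and Areg, an epidermal growth factor family gene, at 0.58. Klrg1, the cytokine gene Il13 and Thy1 had -0.44 ± 0.12, -1.06 ± 0.18 and -1.98 ± 0.75 per the authors' deposited table. Markers of other cell types were also present. Of 42 listed, 37 had an adjusted p, 28 of these lay below 0, and 8 were called negative and 0 positive. Over all tested genes 50.4% lay below 0, 13.5% were called negative and 11% positive. The 8 were Cd3g, Cd79b, Jchain, C1qa, H2-Ab1, Zbtb46, Ngp and Pdgfrb, and the median over the 37 was -0.66. H2-Ab1, an MHC class II gene, had -1.74 ± 0.22, Pdgfrb -1.63 ± 0.34, Zbtb46 -1.03 ± 0.23 and Cd3g -0.66 ± 0.19 per the authors' deposited table. Others lay above 0 and were not called, among them the T cell genes Cd4, Bcl11b, Lat and Cd3e at 0.37, 0.34, 0.24 and 0.08, the dendritic cell genes Xcr1 and Itgax at 0.32 and 0.21, and the epithelial gene Epcam at 0.38, per the authors' deposited table. The median was 0.08 over the T cell markers, 0.20 over the epithelial markers and -0.26 over the dendritic cell markers. None of the 42 was at 0, and their means ran from 4.20 normalized counts for Ly6g to 7594 for Sftpc per the authors' deposited table. Their summed level was 34346 normalized counts, beside 203716 for the ILC2 markers and 74128 for the 50 replication genes. The part of these other cell types in the fold changes of the replication genes was not tested.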

How the data were processed

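RNA of sorted lung ILC2s was made into full-length cDNA with a SMART-Seq HT kit and a transposase library kit, per the labels' protocols. HISAT2, Cufflinks and mm10 are named in the submitters' processing notes. A counting tool, its annotation and its strand handling were not given in the sources used here.

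Per the file headers, the authors deposited, by gene, the normalized count averaged over libraries (a signal), the log2 fold change and its error, a score, and the raw and adjusted p-value. The deposited adjusted p-value equalled a Benjamini-Hochberg adjustment to within 7.6e-07. Which libraries entered the authors' fit is not stated, nor are separate cultures or animals beyond the pools, so that the p-values measure the spread between those libraries. Adjusted p-values exist for 14961 genes, at means of at least 10.46 normalized counts, and are absent for 24483 genes with a p-value. Left out were 12 per-sample columns (6 names), because none matches a label. The planned count fit was therefore replaced by the authors' comparison, and the depth per sample was not used. Precision is that of the deposited standard errors (median 0.217 over the 50 genes, 0.233 over tested genes), and 95% intervals assume a normal distribution.

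A gene counted as called where its adjusted p was under 0.05. The 50 genes and the lists were chosen with earlier results of these data known. All 50 genes may be named. Full statistics go to the smallest and largest p of each role group, to Stk11, and to the 3 smallest p among called genes of each other list. Others were chosen after their values were seen. Exon lengths, GC content, overlaps and starts came from GENCODE M21 (mm10), in which 39191 gene identifiers were found, and promoter windows from RefSeq (GRCm38.p6). The call rule was run on simulated fold changes, drawn independently for each gene with the deposited standard errors. Genes of the real data share libraries, so that the simulation cannot show how the rule does there. Alternatives are given in the closing section. Fits used statsmodels 0.14.6 and scipy 1.17.1, tables pandas 2.3.3 and numpy 2.4.6, and plots matplotlib 3.10.9, under Python 3.11.15.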

Additional observations from a re-analysis of the deposited data

How the results depend on the processing

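The 45 negative calls among the 50 replication genes stayed between 41 and 45, with 0 positive, at an adjusted p below 0.01, when p was adjusted over every gene with a p-value or over genes with a mean of at least 100, after lowess trends on exon length and GC content were removed, and after centring on the most abundant 25% of genes (a shift of -0.0373). The median was -0.94 with the trends removed. Without the 9 genes that share over 10% of their exon bases, a choice made after seeing the data, 38 of 41 genes were negative. Tested against an absolute log2 fold change of 0.5, 11 replication genes stayed negative, beside 1.78% of tested genes: 3 in helicase activation, 2 in the Mcm group, 1 each in the origin recognition complex, helicase loading, alpha-primase, clamp and loader, replication protein A and chromatin assembly, and 0 in polymerase delta, polymerase epsilon, Okazaki maturation and fork protection. The same test left 5 of the other replication genes negative and 0 repair and bypass polymerases of either sign. Polymerase delta kept 1 call at an adjusted p below 0.01, with p adjusted over every gene, and after centring. At 0.01, 1 repair polymerase was positive. With the trends removed, 1 of the other replication genes (Pold4) and 4 ILC2 markers rather than 2 were positive. With coding lengths, chosen after seeing the data because the protein table planned for was not used here, the Mcm2 to Mcm7 levels spanned a ratio of 1.88. In the 250 bases before the start alone, 21.95% of replication genes held an E2F word, and 3.70% of other tested genes. In 34 replication genes the call was lost in the test against 0.5, and 0 called fold changes were reversed under any of these settings. No paired analysis was possible because the per-sample columns match no label, and for the same reason no replicate was left out. The precision of the deposited errors limits what can be said of Fen1 and, less so for Orc3, of the 4 uncalled origin subunits.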
